A study of Mus musculus with 21 samples.

Results

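The comparison described here is that of adult mice exposed to valproic acid (VPA) before birth with adult mice whose mothers received the vehicle, in sorted Nestin-EGFP positive cells of the dentate gyrus. It takes in 6 of the 21 libraries of the study, 3 from VPA mice and 3 from control mice. All were chosen by their labels as 12-week libraries without running. The tables listed 24322 gene symbols, and the 13422 with at least 1 FPKM (sequenced fragments scaled by transcript length and by library size) in at least 3 of the 6 libraries were tested. The other libraries of the study come from embryonic day 15, from postnatal day 5 (P5) and from VPA mice given voluntary running until 12 weeks.

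Both groups were Nestin-EGFP reporter mice on a C57BL/6 background, and in both the hippocampal dentate gyrus was taken at 12 weeks of age. VPA mice were born to mothers given VPA by mouth at 300 mg/kg per day on embryonic days 12, 13 and 14. Control mice were born to mothers given methylcellulose, the carrier, on the same days. Cells positive for the reporter were sorted by flow cytometry and their polyadenylated RNA was sequenced on an Illumina HiSeq instrument. The sort follows the Nestin promoter of the transgene, so it keeps any cell in which that promoter is active or in which the EGFP protein persists. Every library held both Xist, at 139 to 175 FPKM in VPA and 52.9 to 158 FPKM in control libraries, and the Y-linked Ddx3y, at 6.42 to 22.7 FPKM in VPA and 11.9 to 16.99 FPKM in control libraries. Xist is expressed in female cells, so each library held RNA of both sexes and thus of more than 1 mouse. Whether the 3 libraries of a group are separate pools of mice, separate litters or shares of 1 pool is not in the labels. The p-values therefore measure only the spread between these samples, which may be technical.

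VPA is an antiepileptic and mood-stabilising drug that also inhibits class I histone deacetylases, the enzymes that remove acetyl groups from histones. In the adult dentate gyrus, radial glia-like neural stem cells carry Nestin and give rise to intermediate progenitors, which divide and become newborn granule neurons. Oligodendrocyte precursor cells lie among them, and the capillary wall, made of endothelial cells and pericytes, borders the stem cell niche.

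The 6 libraries had between 13502 and 15210 genes above 0 and correlated with each other on the log2(FPKM + 1) scale at r values of 0.817 to 0.925, with the lowest value between VPA replicate 3 and control replicate 2. Small RNA genes held 16.5% to 19.5% of the summed FPKM in VPA libraries and 14.8% to 18.5% in control libraries. Among replicates the median gene had an SD of 0.350 log2 units in the VPA group and 0.330 in the control group, against 0.090 and 0.0917 in the VPA and control groups at P5. No read count or step of 1 read could be recovered from the values, so the depth of each library is unknown. Rpl26 and Eno1, which every cell uses, are listed at 0 in all 6 libraries, so an exact 0 in these tables can be a failed estimate.

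Only 1 gene passed an adjusted p of 0.05 in limma with Benjamini-Hochberg adjustment, and it was higher in VPA libraries (0.00745% of the 13422 tested), while 0 genes were lower and called. At an unadjusted p of 0.05, 673 genes were higher (5.01%) and 646 lower (4.81%). The 3 VPA values lay wholly above the 3 control values for 1070 genes (7.97%) and wholly below them for 1036 genes (7.72%). An exact permutation test of 3 against 3 libraries cannot give a two-sided p below 0.1, so no gene could be called by that test alone. The median log2 difference over all tested genes was -0.01, and 6638 differences were positive. Differences named below are log2 differences on the log2(FPKM + 1) scale, VPA minus control, and the added 1 understates those of low genes.

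The called gene was 0610040B10Rik, named here although numbered clones were outside the rule for naming genes. It stood at 23.9, 17.8 and 23.3 FPKM in the VPA libraries, and it is listed at 0 in each of the 3 control libraries (limma adjusted p = 0.0101). The gene met the filter of 1 FPKM in 3 libraries only through its VPA values. It could thus enter the test only as a gene higher in VPA libraries, and an exact 0 can be a failed estimate. GENCODE vM21 places it on mm10 at chr5:143329247-143332704 on the plus strand as an antisense transcript, and without a stated strand in the counting its reads cannot be told apart from those of a gene on the other strand. The call did not hold in a fit that also took in the 3 running libraries (adjusted p = 0.498), with a pseudocount of 0.1 (adjusted p = 0.119) or with no filter on low values (adjusted p = 0.0937).

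Genes of oligodendrocyte precursors lay highest among the marker lists with 3 or more tested members. These cells, also known as NG2 glia, divide in the adult brain and make myelinating oligodendrocytes. All 15 listed precursor genes had a positive difference, with a median of 0.96, against -0.01 over all tested genes. For 10 of the 15 all 3 VPA values were above all 3 control values, against the 7.97% of all tested genes given above, but no member passed the adjusted threshold. The summed level of the 15 genes was 2769, 3543 and 4245 FPKM in VPA libraries and 1680, 2350 and 1511 FPKM in control libraries, so the lowest VPA sum lay above the highest control sum. In bulk samples such as these, more cells of a type and more RNA per cell cannot be told apart.

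**Figure D1:**
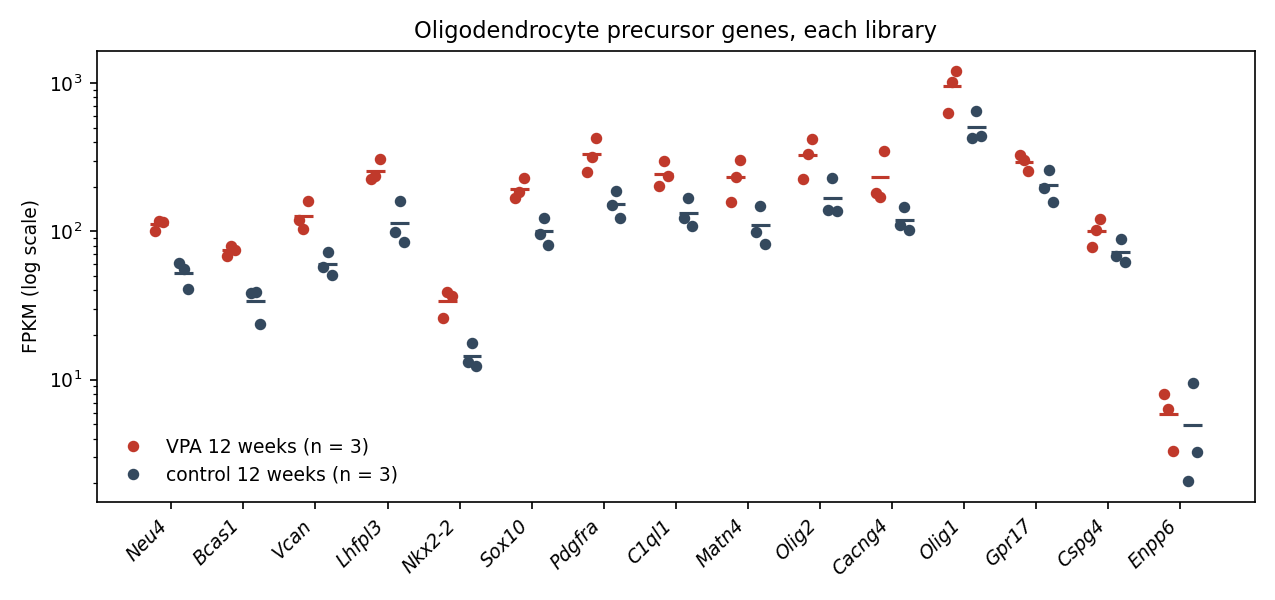
FPKM (log scale) of the 15 oligodendrocyte precursor genes in each of the 3 VPA libraries (red, left of each pair) and the 3 control libraries (blue), with group means as bars. The groups do not overlap for 10 genes, and Olig1, Olig2, Gpr17, Cspg4 and Enpp6 overlap.

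Neu4, a sialidase that removes sialic acid from glycoproteins and glycolipids, had the smallest p of the precursor list. Its promoter is shown because it is the leading member of a set of genes that lay higher together. The RefSeq window of 250 bases before to 50 bases after its start (GRCm38.p6, chr1:94020243-94020542, plus strand) is printed with the match to the SOX core motif in capitals:
Neu4: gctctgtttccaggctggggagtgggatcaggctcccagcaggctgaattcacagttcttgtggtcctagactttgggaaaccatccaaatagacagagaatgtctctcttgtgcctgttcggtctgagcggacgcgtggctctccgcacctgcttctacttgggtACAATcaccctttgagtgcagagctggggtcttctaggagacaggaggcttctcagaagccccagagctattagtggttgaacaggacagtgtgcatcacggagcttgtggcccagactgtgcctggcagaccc
The motif was searched as ACAAT or ACAAAG on both strands. It was present in 5 of the 9 precursor-list genes with a promoter in the table (Cspg4, Enpp6, Neu4, Nkx2-2 and Olig2) and in 42.9% of 32851 promoters, so a match is common and is only a description of the letters.

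Neu4 had 100.6, 117.5 and 116.3 FPKM in VPA libraries, against 60.8, 55.4 and 41.1 FPKM in control libraries. Every VPA value was above every control value (log2 difference 1.09, SE 0.19, limma adjusted p = 0.264). Bcas1, a marker of precursors that are starting to differentiate, had 68.6, 80.1 and 74.4 FPKM in VPA libraries and 38.6, 39.0 and 23.9 FPKM in control libraries (log2 difference 1.14, adjusted p = 0.279). Its groups were also apart, with a spread among VPA libraries that was small beside the gap.

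The transcription factors that set the lineage pointed the same way. Sox10, which is needed for oligodendrocyte differentiation, averaged 194 ± 31.7 FPKM in VPA libraries and 99.96 ± 21.2 FPKM in control libraries (SD, n = 3 each; log2 difference 0.96, adjusted p = 0.284). Nkx2-2, a homeobox factor of the lineage, averaged 33.9 ± 6.98 FPKM in VPA libraries and 14.4 ± 2.87 FPKM in control libraries (log2 difference 1.18, adjusted p = 0.28). Olig1 was the most abundant by FPKM, which is per length, at 632, 1022 and 1202 FPKM in VPA libraries, against 427, 646 and 440.1 FPKM in control libraries. VPA replicate 1 lay below control replicate 2 there, and the same library pair overlapped for Olig2.

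Surface and matrix genes of precursors followed. Pdgfra, the receptor that drives precursor proliferation, had 251, 318 and 424 FPKM in VPA libraries, against 149.5, 188 and 124 FPKM in control libraries (log2 difference 1.09, adjusted p = 0.284). Vcan, the proteoglycan versican, averaged 128 ± 29.1 FPKM in VPA libraries and 60.3 ± 11.1 FPKM in control libraries (SD, n = 3 each; log2 difference 1.06, adjusted p = 0.279). Lhfpl3 had 224, 235 and 309 FPKM in VPA libraries and 98.3, 159 and 85.4 FPKM in control libraries (log2 difference 1.19, adjusted p = 0.28). Both receptor and matrix genes were thus apart between groups. Cspg4, the NG2 proteoglycan, and Enpp6, a marker of newly forming oligodendrocytes, had overlapping groups, and the difference of Enpp6 was 0.35 with a 95% interval of -0.85 to 1.56.

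Several genes outside the list that had the smallest p values were high in the same libraries. Gjc3, a gap junction protein of oligodendrocyte-lineage cells, had 136, 137 and 151 FPKM in VPA libraries, against 65.0, 64.9 and 53.7 FPKM in control libraries (log2 difference 1.20, SE 0.16, limma adjusted p = 0.156). Pcdh15, a protocadherin best known from the hair cells of the inner ear, had 55.9, 55.1 and 52.3 FPKM in VPA libraries and 23.3, 26.4 and 20.003 FPKM in control libraries (log2 difference 1.20, adjusted p = 0.254). Shc4, a signalling adaptor of receptor tyrosine kinases, had 29.4, 35.3 and 43.9 FPKM in VPA libraries and 12.2, 8.26 and 4.52 FPKM in control libraries (log2 difference 2.07, adjusted p = 0.254). These genes were named only from among genes whose groups did not overlap, so that trait was set by the choice. None was called. Named in the same way were Kank1, an actin regulator, Spon1, an extracellular adhesion protein, and Dscam, a neuronal adhesion molecule. So were Sstr1, a somatostatin receptor, and Zcchc24. They were higher by 1.07 to 1.49 on the log2 scale.

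**Figure D2:**
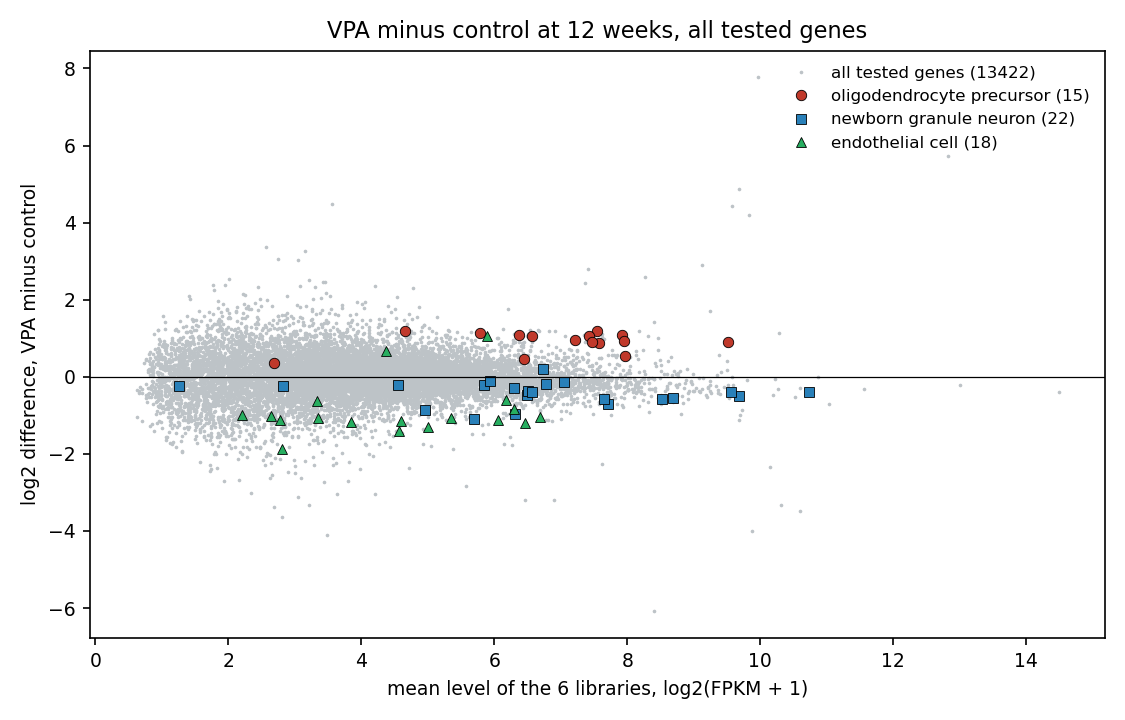
Log2 difference (VPA minus control) of all 13422 tested genes against their mean log2(FPKM + 1) over the 6 libraries, with the oligodendrocyte precursor (red circles), newborn granule neuron (blue squares) and endothelial (green triangles) lists marked. The 15 precursor genes lie above 0, 21 of 22 newborn neuron genes below 0 and 16 of 18 endothelial genes below 0.

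Genes of myelinating oligodendrocytes lay on the other side of 0 from those of their precursors. Of 13 tested members 10 had a negative difference, the median was -0.63, and 4 were lower and 1 higher in VPA libraries without overlap. These are 30.8% and 7.69% of the list, against 7.72% and 7.97% of all tested genes. One of the 4, Aspa, met the filter of 1 FPKM in 3 libraries only through its control values. It could thus enter the test only as a gene lower in VPA libraries. Mbp, a main protein of compact myelin, had 43.3, 78.7 and 27.3 FPKM in VPA libraries, against 81.8, 89.2 and 95.6 FPKM in control libraries (log2 difference -0.95, adjusted p = 0.412). Mag, a membrane protein of the myelin sheath, averaged 10.5 ± 4.88 FPKM in VPA libraries and 23.7 ± 6.47 FPKM in control libraries (SD, n = 3 each; log2 difference -1.16, adjusted p = 0.375). Ugt8a, which makes the galactolipids of myelin, stood on the other side at 23.8, 34.4 and 26.6 FPKM in VPA libraries and 18.7, 17.9 and 10.1 FPKM in control libraries. The median of this list was -0.39 without VPA replicate 1, -0.96 without control replicate 2 and -0.35 without control replicate 3.

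Genes of newborn granule neurons were lower in VPA libraries nearly throughout. Of 22 members 21 had a negative difference with a median of -0.38, and for 11 all VPA values were below all control values, against 7.72% of all tested genes. None passed the adjusted threshold. The summed level was 4998, 4632 and 4305 FPKM in VPA libraries and 5565, 6845 and 6453 FPKM in control libraries, again without overlap.

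Rnd2, which acts in the migration of newborn neurons, had 131, 152 and 150.05 FPKM in VPA libraries, against 253, 304 and 300.02 FPKM in control libraries. The log2 difference was -0.98 (SE 0.16, limma adjusted p = 0.254). Prdm8, a nuclear repressor of developing neurons, had 33.3, 33.0 and 33.4 FPKM in VPA libraries and 60.6, 56.4 and 64.0 FPKM in control libraries (log2 difference -0.84, adjusted p = 0.279). Neither gene is on the newborn neuron list. Both were named by their small p from among genes whose groups did not overlap.

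Within the list, the basic helix-loop-helix factors of the granule lineage stood out. Bhlhe22 had 42.1, 35.1 and 21.2 FPKM in VPA libraries, against 67.2, 71.3 and 68.8 FPKM in control libraries (log2 difference -1.11, adjusted p = 0.302). Neurod2 had 24.3, 17.4 and 21.7 FPKM in VPA libraries and 39.5, 38.0 and 39.1 FPKM in control libraries (log2 difference -0.86, adjusted p = 0.314). Neurod1, which newborn granule neurons need to survive, averaged 159.6 ± 31.6 FPKM in VPA libraries and 259 ± 27.4 FPKM in control libraries (SD, n = 3 each; log2 difference -0.71, adjusted p = 0.336). In all 3 genes no VPA library reached the lowest control library. Dcx, the microtubule protein doublecortin that is the usual marker of these cells, differed less, at 97.3, 82.9 and 65.9 FPKM in VPA libraries and 119, 98.9 and 101 FPKM in control libraries (log2 difference -0.38, adjusted p = 0.549). Tubb3, Sox4, Igfbpl1, Dpysl5, Stmn1, Tubb2b and Sox11 were likewise lower without overlap, by 0.28 to 0.58.

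Intermediate progenitor genes, 14 in number, had a median of -0.35, with 5 lower without overlap (35.7%, against 7.72% of all tested genes). Insm1, a zinc-finger factor of dividing neuronal progenitors, averaged 32.0 ± 6.04 FPKM in VPA libraries and 51.3 ± 2.64 FPKM in control libraries (log2 difference -0.68, adjusted p = 0.351). Calb2, the calcium-binding protein calretinin that marks a short stage after the last division, had 211, 212 and 179 FPKM in VPA libraries, against 285, 293 and 302 FPKM in control libraries (log2 difference -0.55, adjusted p = 0.341). Eomes, the T-box factor Tbr2 that defines intermediate progenitors, had 127, 67.2 and 57.5 FPKM in VPA libraries and 105, 106 and 112 FPKM in control libraries, and here VPA replicate 1 was above every control library. The list's median moved with single libraries, to -0.53 without VPA replicate 1, -0.21 without VPA replicate 3 and -0.21 without control replicate 2.

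Genes of the cell cycle had medians below 0. The median was -0.32 over 30 S-phase genes and -0.61 over 28 genes of G2 and mitosis, with 3 members of each lower without overlap and 0 higher, where 7.72% of all tested genes were lower without overlap. Ccnb1, the cyclin that starts mitosis, had 0.860, 1.48 and 0.784 FPKM in VPA libraries, against 3.84, 7.95 and 4.37 FPKM in control libraries (log2 difference -1.61, adjusted p = 0.338). Mki67, the proliferation marker Ki-67, had 8.17, 7.81 and 4.79 FPKM in VPA libraries and 9.62, 12.5 and 11.1 FPKM in control libraries (log2 difference -0.63, adjusted p = 0.548). Without VPA replicate 3, the library with the lowest Mki67, the G2 and mitosis median was -0.13 and the S-phase median -0.21, and without control replicate 2 the S-phase median was -0.18. Among G1 regulators, Ccnd1 pointed the other way at 61.8, 121 and 151 FPKM in VPA libraries, against 53.8, 74.6 and 43.8 FPKM in control libraries, with overlap.

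Markers of the stem cells themselves differed from gene to gene. Of 25 stem cell genes 19 had a negative difference, with a median of -0.50, and 7 were lower and 1 higher without overlap. As shares, these 28% and 4% stand beside 7.72% and 7.97% of all tested genes. The 7 include Riiad1, which met the filter only through its control values and so could be counted only as lower. Nes, the filament protein whose promoter drives the reporter, had 12.4, 7.86 and 10.2 FPKM in VPA libraries, against 10.6, 15.5 and 18.7 FPKM in control libraries (log2 difference -0.50, 95% interval -1.20 to 0.19). Sox2, a factor that maintains stem cells, had 112, 89.0 and 135 FPKM in VPA libraries and 75.7, 104 and 129 FPKM in control libraries (log2 difference 0.13, 95% interval -0.41 to 0.68). The groups overlapped in both genes.

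Hopx, a marker of quiescent stem cells, had 43.1, 61.5 and 95.4 FPKM in VPA libraries, against 78.8, 239 and 146 FPKM in control libraries (log2 difference -1.13, adjusted p = 0.42). Thrsp, a regulator of lipid synthesis in quiescent stem cells, had 71.8, 89.3 and 102 FPKM in VPA libraries and 111, 205 and 183 FPKM in control libraries (log2 difference -0.88, adjusted p = 0.343). Only Thrsp of these was without overlap. Riiad1 is listed at 0 in each VPA library and had 7.16, 20.2 and 5.38 FPKM in control libraries, through which alone it met the filter. Sox1 averaged 16.2 ± 3.08 FPKM in VPA libraries and 28.8 ± 6.10 FPKM in control libraries (SD, n = 3 each).

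Astrocyte genes, several of which stem cells also express, had a negative difference in 19 of 20 cases, with a median of -0.58. Without overlap 8 were lower and 1 higher (40% and 5%, against 7.72% and 7.97% of all tested genes). Glul, the glutamine synthetase of astrocytes, averaged 127 ± 17.8 FPKM in VPA libraries and 219 ± 54.3 FPKM in control libraries (log2 difference -0.77, adjusted p = 0.348). Gfap, an intermediate filament of stem cells and astrocytes, had 25.7, 25.5 and 44.3 FPKM in VPA libraries, against 45.04, 47.1 and 48.3 FPKM in control libraries (log2 difference -0.59, adjusted p = 0.472). S100b was the exception, at 101, 101 and 125 FPKM in VPA libraries and 47.4, 79.1 and 59.9 FPKM in control libraries (log2 difference 0.82, adjusted p = 0.333); oligodendrocyte-lineage cells express it as well. The summed astrocyte level was 3768 to 5363 FPKM in VPA libraries and 4459 to 8872 FPKM in control libraries, with VPA replicate 3 above control replicate 1.

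**Figure D3:**
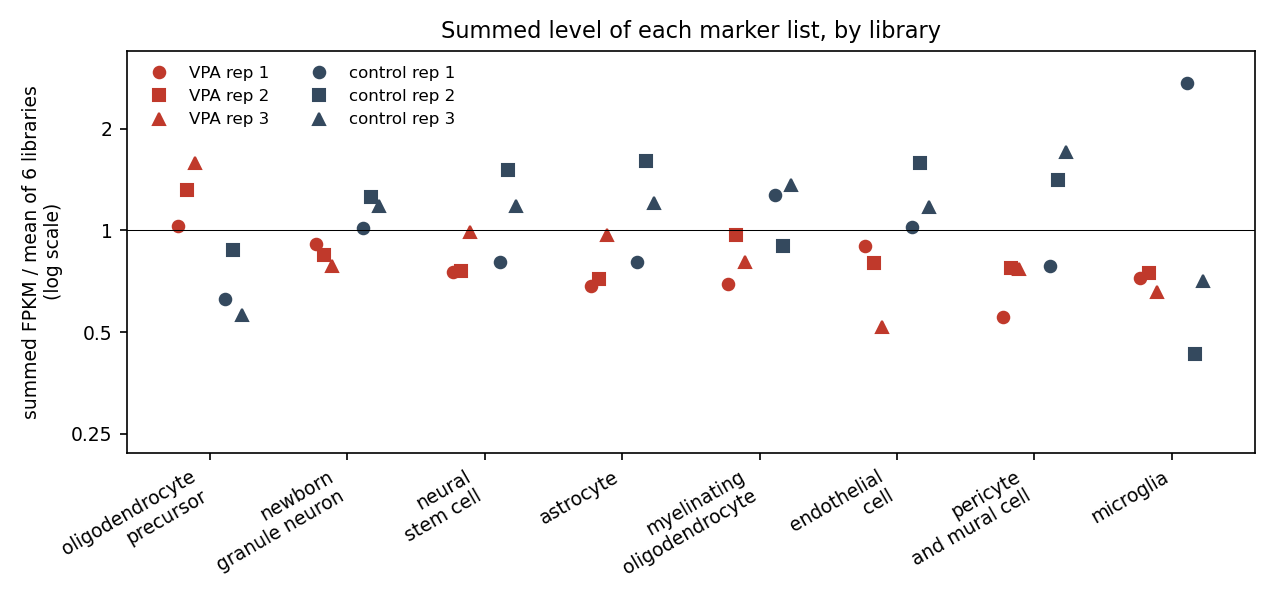
Summed FPKM of 8 marker lists in each library, divided by the mean of the 6 libraries (log scale), with VPA libraries in red to the left of control libraries in blue. The groups are apart for oligodendrocyte precursor, newborn granule neuron and endothelial genes and, by a narrow gap, for pericyte and mural cell genes, and control replicate 1 stands alone for microglia at 581 FPKM.

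Genes of the vessel wall had mostly negative differences. Of 18 endothelial genes 16 had a negative difference, with a median of -1.08, and 11 were lower and 1 higher without overlap. These are 61.1% and 5.56% of the list, against 7.72% and 7.97% of all tested genes. The summed level was 589, 522 and 337 FPKM in VPA libraries and 668, 1034 and 766 FPKM in control libraries. Emcn, a sialomucin of capillaries and veins, had 8.49, 10.4 and 15.1 FPKM in VPA libraries, against 16.8, 50.1 and 35.1 FPKM in control libraries (log2 difference -1.41, adjusted p = 0.339). Cldn5, the tight junction protein of the blood-brain barrier, had 62.0, 59.1 and 29.6 FPKM in VPA libraries and 68.1, 205 and 97.4 FPKM in control libraries (log2 difference -1.20, adjusted p = 0.412). The gap was narrow, as VPA replicate 1 lay close under control replicate 1, and without VPA replicate 3 the list median was -0.59. Mfsd2a, a lipid carrier of the barrier, went against its list with 82.8, 88.6 and 64.7 FPKM in VPA libraries and 50.2, 25.9 and 39.1 FPKM in control libraries (log2 difference 1.05, adjusted p = 0.322).

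All 15 pericyte and mural cell genes had a negative difference, with a median of -0.68. Of them 5 were lower without overlap (33.3%, against 7.72% of all tested genes). Abcc9, a subunit of the potassium channel of pericytes, had 13.9, 19.1 and 19.2 FPKM in VPA libraries, against 26.8, 29.99 and 46.6 FPKM in control libraries (log2 difference -0.92, adjusted p = 0.348). Vtn, the secreted protein vitronectin that pericytes make in large amounts, had 406, 654 and 571 FPKM in VPA libraries and 636, 1247 and 1476 FPKM in control libraries, with an overlap of VPA replicate 2 and control replicate 1. All 9 tested fibroblast genes were also negative, with a median of -0.80, or -0.42 without control replicate 3. Slc22a8, an organic anion transporter, had 7.18, 8.40 and 8.58 FPKM in VPA libraries and 16.7, 24.7 and 23.1 FPKM in control libraries. Islr, Lamb2 and Ifitm3 were lower by 1.11 to 1.57. Slc22a8, Islr and Lamb2 were named by their small p from among genes whose groups did not overlap. Whether the vascular genes and the genes of the neural lists share a source in these libraries was not tested.

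Genes of other cell types differed from library to library. Microglial genes summed to 154, 159 and 139 FPKM in VPA libraries and 581, 92.0 and 151 FPKM in control libraries, so control replicate 1 stood alone. The microglial median was -0.42, and it was 0.22 without that library, -1.13 without control replicate 2 and -0.69 without control replicate 3. P2ry12, the purinergic receptor that defines microglia, had 2.53, 7.996 and 8.96 FPKM in VPA libraries and 42.0, 6.16 and 6.37 FPKM in control libraries. Erythroid genes summed to 0.219, 153 and 0 FPKM in VPA libraries and 1436, 0 and 291 FPKM in control libraries, which follows no group. Of 11 choroid plexus genes only Ttr and Enpp2 were tested, and Kcne2, Kcnj13 and Slc4a5 are listed at 0 in all 6 libraries. Enpp2, a lysophospholipase that oligodendrocyte-lineage cells also make, had 78.3, 107 and 120.1 FPKM in VPA libraries and 52.1, 59.998 and 42.2 FPKM in control libraries.

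Of 16 genes of mature neurons 13 had a negative difference, with a median of -0.09 that ranged from -0.31 without VPA replicate 1 to -0.13 without control replicate 3 when a library was left out, and 1 of them, Syp, was lower without overlap. That is 6.25% of the list, near the 7.72% of all tested genes. Of 10 tested GABAergic genes 8 had a positive difference with a median of 0.89, which was 0.33 without control replicate 2. Gad1, which makes GABA, had 13.0, 19.3 and 37.3 FPKM in VPA libraries, against 10.996, 10.5 and 8.13 FPKM in control libraries (log2 difference 1.04, adjusted p = 0.419). It was the only member without overlap (10% of the list, near the 7.97% of all tested genes). Sst and Vip, which define interneuron classes, are listed at 0 in all 6 libraries, and Slc32a1, the vesicular GABA transporter, averaged 0.57 FPKM in VPA libraries and 1.05 FPKM in control libraries.

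**Figure D4:**
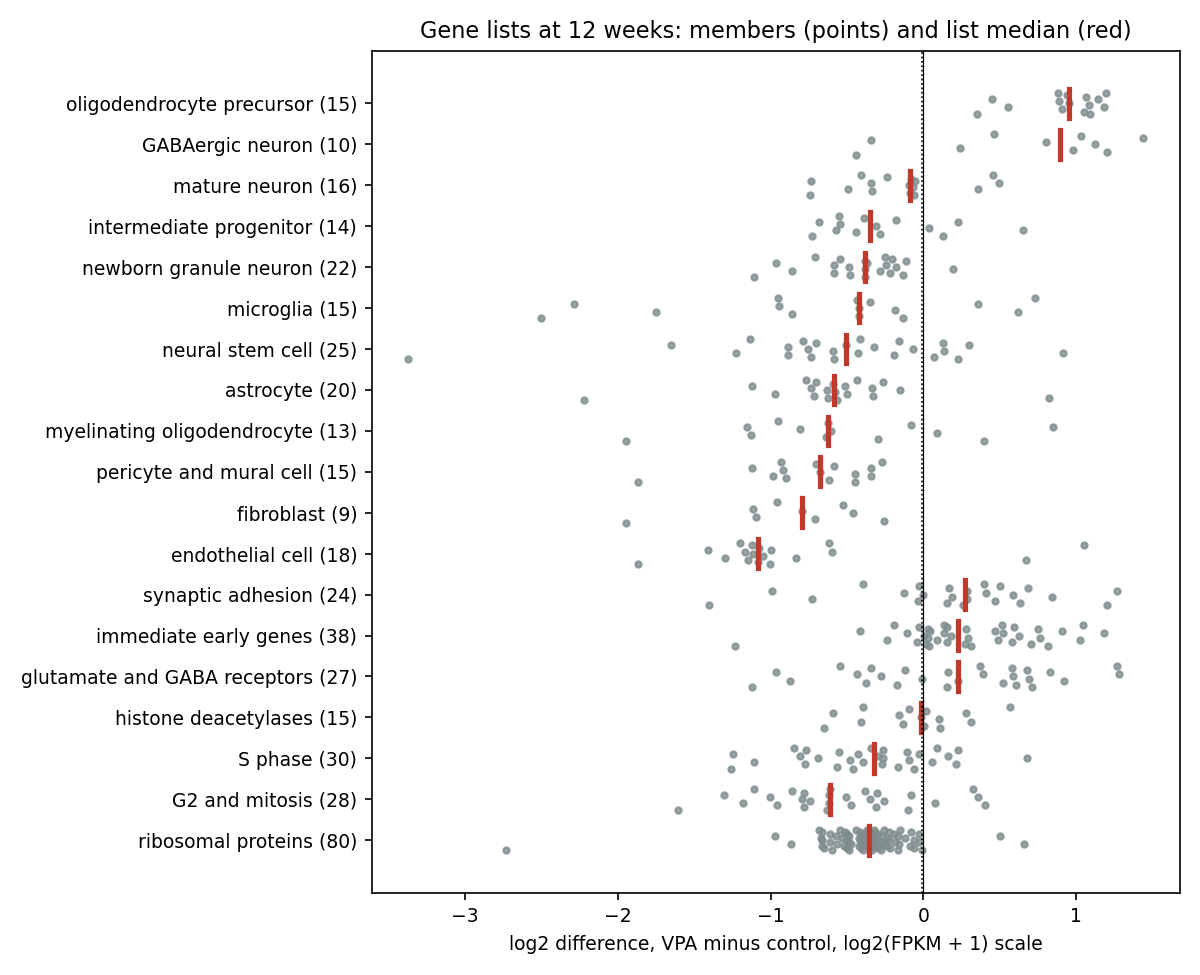
Log2 difference (VPA minus control) of each tested member (grey points) and the median (red bar) of 19 gene lists, with the number of members in brackets and the median of all tested genes dotted. Oligodendrocyte precursor and GABAergic neuron genes lie to the right, at medians of 0.96 and 0.89, and endothelial genes farthest to the left at -1.08.

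Immediate early genes, which are switched on within minutes by neuronal activity, growth factors or cell stress, were mostly higher in VPA libraries. Of 38 members 31 had a positive difference, with a median of 0.23, and 9 were higher and 0 lower without overlap. The 9 are 23.7% of the list, against 7.97% of all tested genes. Fosb, a subunit of the AP-1 transcription factor, had 166, 125 and 213 FPKM in VPA libraries, against 78.7, 64.2 and 73.7 FPKM in control libraries (log2 difference 1.18, SE 0.22, limma adjusted p = 0.264). Jun, its partner, had 422, 415 and 465 FPKM in VPA libraries and 303, 256 and 243 FPKM in control libraries (log2 difference 0.70, adjusted p = 0.314). Both were apart between groups. Nr4a1, an orphan nuclear receptor, averaged 123 ± 20.3 FPKM in VPA libraries and 65.8 ± 17.05 FPKM in control libraries (SD, n = 3 each; log2 difference 0.91, adjusted p = 0.331). Fos, Cyr61, Dusp1, Jund, Klf4 and Klf6 were higher without overlap by 0.49 to 1.05, whereas Egr1 overlapped at a difference of 0.18. Without control replicate 2 or 3 the list median was 0.13 or 0.15.

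Of 22 oxidative stress genes 17 had a negative difference with a median of -0.24, and 2 were lower and 1 higher without overlap. Those shares of 9.09% and 4.55% are near or below the 7.72% and 7.97% of all tested genes. The oxidative stress median was -0.13 without VPA replicate 1 and also without control replicate 2. Of 17 heat shock genes only Hspa1a and Hspa1b, near-identical copies whose reads may be split between them, were higher without overlap (11.8%, against 7.97% of all tested genes). Hspa1a had 60.3, 63.1 and 78.1 FPKM in VPA libraries, against 53.0, 23.9 and 30.1 FPKM in control libraries. For the endoplasmic reticulum stress list the median was 0.08, or 0.01 without VPA replicate 1 and 0.22 without control replicate 1. Its members Eif2ak3, the sensor kinase PERK, and Atf4, the factor induced downstream of it, were higher without overlap by 0.83 and 0.50. Atf4 had 228, 211 and 244 FPKM in VPA libraries and 175, 137 and 174 FPKM in control libraries (adjusted p = 0.404).

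The glycolysis and hypoxia list had a median of -0.03 over 23 genes, but it split into 4 members that were higher and 3 that were lower without overlap. These are 17.4% and 13.0% of the list, against 7.97% and 7.72% of all tested genes. Ankrd37, a small ankyrin-repeat protein induced by hypoxia-inducible factor (HIF), had 5.01, 8.31 and 4.38 FPKM in VPA libraries, against 0.205, 0 and 0.263 FPKM in control libraries (log2 difference 2.54, SE 0.47, limma adjusted p = 0.264). Ankrd37 met the filter of 1 FPKM only through its VPA values, so it could enter the test only as a gene higher in VPA libraries. Vegfa, the growth factor of vessels, had 111, 167 and 194 FPKM in VPA libraries and 84.8, 64.3 and 53.8 FPKM in control libraries (log2 difference 1.20, adjusted p = 0.28). Egln3, a HIF prolyl hydroxylase that is itself a HIF target, had 6.81, 6.44 and 5.57 FPKM in VPA libraries and 2.27, 0 and 1.24 FPKM in control libraries (log2 difference 1.90, adjusted p = 0.336). Adm, the vasodilator peptide adrenomedullin, completed the higher set at 12.7 ± 2.32 FPKM in VPA libraries and 5.04 ± 1.87 FPKM in control libraries (SD, n = 3 each). The lower set was Hk2, Ddit4 and Slc2a1, of which Slc2a1, the glucose carrier of barrier endothelium, had 75.6, 57.1 and 39.5 FPKM in VPA libraries and 87.4, 88.7 and 78.1 FPKM in control libraries.

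The promoters of Ankrd37 and Egln3, the members of the higher set with the largest differences, are shown with the HIF core motif ACGTG in capitals (RefSeq, GRCm38.p6, Ankrd37 at chr8:45999801-46000100 and Egln3 at chr12:54203825-54204124, both on the minus strand and printed 5′ to 3′ of the gene):
Ankrd37: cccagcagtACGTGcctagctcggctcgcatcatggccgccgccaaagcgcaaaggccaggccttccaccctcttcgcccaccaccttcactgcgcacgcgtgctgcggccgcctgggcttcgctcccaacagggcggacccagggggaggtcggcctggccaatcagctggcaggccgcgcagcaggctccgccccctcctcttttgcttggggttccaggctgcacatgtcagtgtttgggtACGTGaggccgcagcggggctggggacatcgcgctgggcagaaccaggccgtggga
Egln3: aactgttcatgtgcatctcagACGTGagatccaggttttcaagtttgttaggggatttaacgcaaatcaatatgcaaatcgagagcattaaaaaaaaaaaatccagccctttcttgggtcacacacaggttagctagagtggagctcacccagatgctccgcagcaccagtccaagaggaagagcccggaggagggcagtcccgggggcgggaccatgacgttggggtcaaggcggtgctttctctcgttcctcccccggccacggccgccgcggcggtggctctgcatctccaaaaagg
Searched on both strands, the motif was in the promoters of Ankrd37, Egln3 and Vegfa, 3 of the 4 genes of the higher set, in 18 of all 25 genes of the list and in 19.6% of 32851 promoters. The lower genes Ddit4, Slc2a1 and Hk2 held it as well.

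Chemokine signalling through Cxcr4 keeps dentate progenitors and newborn neurons in place. Cxcr4 had 14.96, 30.5 and 27.2 FPKM in VPA libraries, against 58.2, 45.7 and 36.9 FPKM in control libraries. Every VPA library was below every control library (log2 difference -0.96, SE 0.30, limma adjusted p = 0.372). Its ligand gene Cxcl12 had 24.2, 35.2 and 21.1 FPKM in VPA libraries and 25.8, 61.1 and 44.8 FPKM in control libraries, with overlap (log2 difference -0.64). Ackr3, the scavenging receptor for the same ligand, overlapped at a difference of -0.33.

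Adhesion and guidance genes lay on both sides of 0. Cntnap2, a neurexin-family protein of neurons that is a known autism risk gene, had 9.42, 8.88 and 7.74 FPKM in VPA libraries, against 22.3, 29.6 and 22.3 FPKM in control libraries (log2 difference -1.40, SE 0.24, limma adjusted p = 0.254). Cntn1, a contactin that oligodendrocyte precursors express too, had 123, 135 and 158 FPKM in VPA libraries and 55.0, 86.3 and 44.0 FPKM in control libraries (log2 difference 1.20, adjusted p = 0.279). The adhesion list had a median of 0.27 over 24 genes. Axon guidance genes had a median of -0.19 over 32 members (-0.34 without VPA replicate 1 and -0.28 without VPA replicate 2). Without overlap 2 were higher and 11 lower (6.25% and 34.4%, against 7.97% and 7.72% of all tested genes). The lower ones included Epha3, an ephrin receptor, at 0.831, 1.30 and 1.47 FPKM in VPA libraries and 4.95, 4.25 and 6.06 FPKM in control libraries (log2 difference -1.47, adjusted p = 0.338).

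Receptor and channel genes had more members higher in VPA libraries. Of 27 glutamate and GABA receptor genes 16 had a positive difference, 7 were higher and 2 lower without overlap, and the median was 0.22. Non-overlapping members made up 25.9% and 7.41%, against 7.97% and 7.72% of all tested genes. Grik1, a kainate receptor subunit, averaged 8.11 ± 2.13 FPKM in VPA libraries and 2.72 ± 0.621 FPKM in control libraries (log2 difference 1.28, adjusted p = 0.348). Gria4, an AMPA receptor subunit, had 31.4, 32.3 and 32.9 FPKM in VPA libraries, against 15.6, 26.3 and 18.1 FPKM in control libraries (log2 difference 0.69, adjusted p = 0.406). Of 31 ion channel genes 8 were higher (25.8%, against 7.97% of all tested genes) and 0 lower without overlap. Kcnd2, an A-type potassium channel, had 13.6, 19.4 and 21.5 FPKM in VPA libraries and 6.91, 8.09 and 7.07 FPKM in control libraries (log2 difference 1.18, adjusted p = 0.314). Several of these genes are also expressed by oligodendrocyte precursors, whose summed markers were higher in the same libraries. Their part in these differences was not tested.

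Extracellular matrix genes lay on both sides as well. Bcan, Vcan, Tnr and Acan, which build the proteoglycan matrix of the brain, were higher without overlap, whereas Sparc, Lamc1, Col4a1 and Lama2, most of them parts of basement membranes, were lower without overlap. Bcan, the proteoglycan brevican, had 372, 454 and 584 FPKM in VPA libraries, against 246, 241 and 205 FPKM in control libraries (log2 difference 1.002, SE 0.20, limma adjusted p = 0.279). Over all 20 members 20% were higher and 20% lower without overlap, against 7.97% and 7.72% of all tested genes. The median of the list was -0.42, or -0.27 without control replicate 3.

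Among the signalling lists, the 28 Wnt genes had 4 members higher and 6 lower without overlap (14.3% and 21.4%, against 7.97% and 7.72% of all tested genes). Apcdd1, a Wnt inhibitor, averaged 56.4 ± 6.36 FPKM in VPA libraries and 89.2 ± 6.73 FPKM in control libraries (log2 difference -0.66, adjusted p = 0.329). Dkk3 averaged 18.5 ± 4.10 FPKM in VPA libraries and 35.2 ± 5.70 FPKM in control libraries (log2 difference -0.90, adjusted p = 0.333). Notch2 and Lfng of the Notch pathway and Smo of the Hedgehog pathway were lower without overlap by 0.62 to 0.89. Bmp7, a ligand, and Chrd, an antagonist, were both higher without overlap, by 0.76 and 0.70. Igfbp3, a binding protein of insulin-like growth factors, had 26.1, 34.1 and 48.8 FPKM in VPA libraries, against 12.1, 20.9 and 12.8 FPKM in control libraries (log2 difference 1.19, adjusted p = 0.322).

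Ribosomal protein genes lay below 0 in 78 of 80 cases with a median of -0.36, and 26 were lower and 0 higher without overlap. The 26 are 32.5% of the list, against 7.72% of all tested genes. Rps10 had 117, 138 and 102 FPKM in VPA libraries, against 179, 284 and 247 FPKM in control libraries (log2 difference -0.97, adjusted p = 0.284). Rps19 had 73.6, 86.2 and 70.6 FPKM in VPA libraries and 112, 121 and 129 FPKM in control libraries (log2 difference -0.65, adjusted p = 0.322). The sum of the list was apart by a narrow gap, at 15709, 16364 and 16857 FPKM in VPA libraries and 17370.5, 23030 and 24783 FPKM in control libraries, with control replicate 1 close to the VPA libraries. Ribosomal genes have many processed copies in the genome, and how reads were shared among them is not given in the sources used here. Of 87 nuclear genes of the respiratory chain 60 had a negative difference, 4 lower and 1 higher without overlap, beside 7.72% lower and 7.97% higher among all tested genes. Cholesterol synthesis genes had a median of -0.30 over 23 members, or -0.15 without VPA replicate 3.

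Histone deacetylase and sirtuin genes, 15 in all and of which the class I histone deacetylases are the drug's known targets, had a median of -0.01, which ranged from -0.12 to 0.14 when a library was left out. The class I genes Hdac1, Hdac2, Hdac3 and Hdac8 overlapped between groups. In the list only Sirt2, a deacetylase abundant in oligodendrocytes and outside class I, was apart between groups. That is 6.67% of the list, near the 7.97% of all tested genes. Sirt2 had 236, 303 and 256 FPKM in VPA libraries and 182, 215 and 143 FPKM in control libraries (log2 difference 0.57, adjusted p = 0.412). Hdac1 had 20.2, 23.8 and 18.7 FPKM in VPA libraries and 21.7, 17.4 and 18.9 FPKM in control libraries (95% interval of the log2 difference -0.39 to 0.60). Hdac2 averaged 116 ± 31.1 FPKM in VPA libraries and 149.97 ± 8.98 FPKM in control libraries (SD, n = 3 each; 95% interval -0.91 to 0.09). Chromatin regulators, 29 in number, had a median of -0.05. Without overlap 5 were lower and 1 higher (17.2% and 3.45%, against 7.72% and 7.97% of all tested genes). Those lower included Smarca4, the ATPase of BAF remodelling complexes, and Kdm1a, a histone demethylase, by 0.45 and 0.39. For DNA methylation genes the median was 0.16 over 13 members.

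Imprinted growth genes had a median of -0.20, but the maternally expressed noncoding RNAs of the Dlk1-Dio3 domain stood above it. Meg3 had 53.6, 123 and 156 FPKM in VPA libraries, against 64.2, 18.6 and 20.4 FPKM in control libraries (log2 difference 1.76, adjusted p = 0.348). Rian had 10.2, 19.5 and 43.1 FPKM in VPA libraries and 12.8, 6.99 and 5.28 FPKM in control libraries (log2 difference 1.29, adjusted p = 0.455). In both, VPA replicate 1 lay below control replicate 1. Mirg had 2.86, 3.44 and 3.95 FPKM in VPA libraries and 1.42, 0 and 0 FPKM in control libraries, without overlap.

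A comparison of running with sedentary VPA mice would share the sedentary VPA libraries used above, so for the running group only levels are given. Gjc3 stood at 54.4, 55.2 and 53.6 FPKM in running VPA libraries, against 136 to 151 FPKM in sedentary VPA libraries and 53.7 to 65.0 FPKM in controls. For Neu4 the running VPA libraries had 47.2, 52.9 and 52.4 FPKM, within or near the control range of 41.1 to 60.8. Cxcr4 had 40.5, 66.2 and 70.8 FPKM in running VPA libraries, and Hopx had 306, 172 and 226 FPKM, both above every sedentary VPA library. Prdm8 stood at 31.5, 40.5 and 35.1 FPKM in running VPA libraries, below the control range of 56.4 to 64.0. Gjc3 and Neu4 were named for their small p in the sedentary VPA and control libraries. Levels nearer to the controls in other libraries can follow from that choice alone. No control mice were given running, and these levels are a description.

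The VPA effect at 12 weeks was then set against that at P5, when the same dose schedule was followed by a sort of Nestin-EGFP positive dentate cells in 3 VPA and 3 control libraries. The difference of the 2 effects, each taken within its age, was tested in 1 limma fit of the 12 libraries. It was higher at 12 weeks for 38 of 14200 genes (0.268%) and lower for 37 (0.261%). These counts depend on how the spread is estimated, since P5 libraries varied less: 4 genes passed the threshold with library weights, 17 to 30 when a P5 library was left out, 45 and 433 without control replicate 3 or 1 at 12 weeks, and 206, 161 and 124 without VPA replicate 1, 2 or 3 at 12 weeks.

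Immediate early genes lay mostly below 0 at P5 and mostly above it, by less, at 12 weeks. At P5 36 of 39 had a negative difference with a median of -0.79, against 32 positive and a median of 0.18 at 12 weeks in this fit. The difference of effects passed the threshold for 12 genes in the same direction, against 0.268% of all genes in that test. With array weights it passed for 0 of them, with a replicate block for 1, Fos, and for 7 to 10 immediate early genes when a P5 library was left out. Fos had 148, 188 and 224 FPKM in VPA libraries at P5, against 627, 733 and 669 FPKM in control libraries at P5. At 12 weeks it had 800.3, 714 and 882 FPKM in VPA libraries, against 655, 466 and 496 FPKM in control libraries. The effect was thus opposite in sign, and the difference of effects was 2.45 (SE 0.24, limma adjusted p = 0.00165). In limma on the P5 libraries alone Fos passed (adjusted p = 0.00464), while 0 immediate early genes passed at 12 weeks alone. Among the 12 genes, Btg2, Ier2, Egr2 and Egr1 had 12-week effects of 0.04, 0.09, 0.15 and 0.18. Their P5 effects were -1.08, -1.15, -1.61 and -1.47, so their differences came mainly from P5. Fosb gave a difference of effects of 2.77 (SE 0.28, adjusted p = 0.00218), Jun 1.89 (SE 0.20, adjusted p = 0.00257) and Nr4a1 2.49 (SE 0.34, adjusted p = 0.00977).

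**Figure D5:**
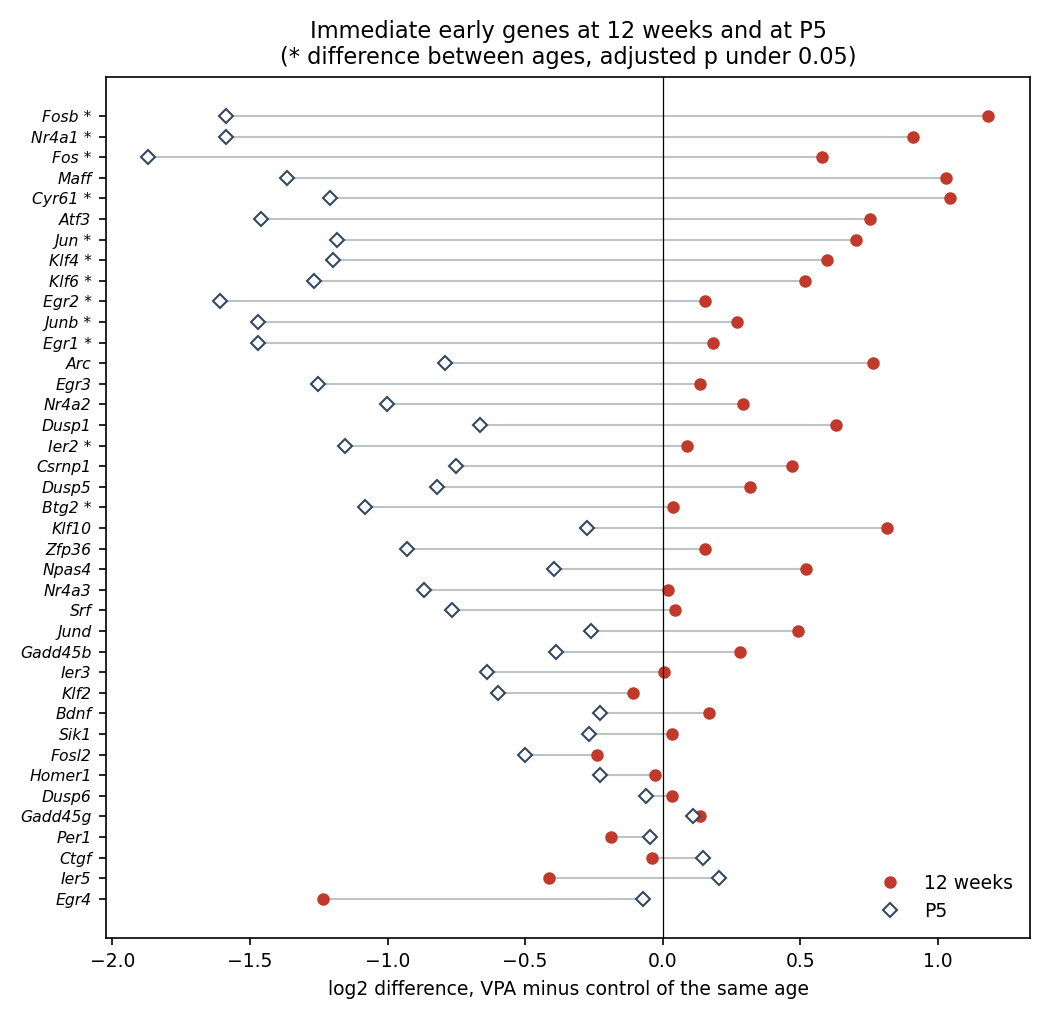
Log2 difference, VPA minus control of the same age, for 39 immediate early genes at 12 weeks (red points) and at P5 (open diamonds), sorted by the gap. At P5 36 genes lie below 0 and at 12 weeks 32 lie above it. The 12 genes with an asterisk differ between ages at an adjusted p under 0.05, against 0.268% of all genes in that test, and 0 of them do so with array weights.

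Some vascular and neuronal genes differed between ages as well. The test of the difference passed for 0 of 18 endothelial, 2 of 15 pericyte and 1 of 22 newborn neuron genes. Those that passed were lower at 12 weeks, as were 0.261% of all genes in that test. All 15 pericyte genes had a positive difference at P5, with a median of 0.73, and all 15 a negative one at 12 weeks. The 2 pericyte genes were Vtn (-2.31, SE 0.41, limma adjusted p = 0.0346) and Abcc9 (-1.99, SE 0.38, adjusted p = 0.0487). Vtn had 57.3, 54.0 and 39.7 FPKM in VPA libraries at P5, against 20.1, 16.6 and 21.1 FPKM in control libraries at P5. Of 22 newborn neuron genes 17 had a positive difference at P5, with a median of 0.10. Rnd2, Prdm8, Neurod2 and Cntnap2 had effects at 12 weeks that were lower than those at P5 by the test (adjusted p = 0.00572, 0.00572, 0.028 and 0.00572). Rnd2, Prdm8 and Cntnap2 also passed whichever P5 library was left out. In those fits Vtn did not pass, Abcc9 passed only without VPA replicate 3 and Neurod2 only without VPA replicate 1. None of these genes passed with array weights or a replicate block.

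Oligodendrocyte precursor genes had 8 positive and 7 negative differences at P5, with a median of 0.10, against 0.96 at 12 weeks. Vcan was the member whose difference of effects passed the threshold (1.37, SE 0.24, adjusted p = 0.0346), where 0.268% of all tested genes passed as higher. It did not pass with array weights, with a replicate block or when any P5 library was left out. Neu4 and Gjc3 were low at P5, at 1.9 to 2.8 and 1.9 to 2.4 FPKM in VPA libraries and 1.9 to 3.5 and 1.3 to 2.6 FPKM in control libraries, and their differences of effects did not pass (1.22, adjusted p = 0.0944, and 1.02, adjusted p = 0.102).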

How the data were processed

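Polyadenylated RNA of Nestin-EGFP positive cells was sequenced in all samples. TopHat, Bowtie2, Cufflinks and Cuffdiff with mm10 were used, per the submitters' processing notes; their versions and the use of strand are not given in the sources used here. Per gene symbol and library the authors deposited 1 FPKM value, per the file headers at 12 weeks; the P5 headers name only the sample, and FPKM was inferred from the values. Log2(FPKM + 1) was fitted in limma 3.58.1 (R 4.3.3, eBayes with trend) over 6 libraries without a replicate term, keeping genes with at least 1 FPKM in 3 libraries, with Benjamini-Hochberg adjustment over all 13422 and a threshold of 0.05. The difference between ages used 12 libraries. The script was tested on simulated data. Depth is unknown, so no counting interval is given. The members, the 43 gene lists and the rules were chosen with earlier results of these data known. Genes were named by the 15 smallest p values per direction among non-overlapping genes whose higher group averaged 5 FPKM or more, by the 2 smallest p values per list, and as a fixed set (Nes, Sox2, Gfap, Hopx, Eomes, Dcx, Mki67, Cxcr4, Cxcl12); Sox10, Nkx2-2, Olig1, Olig2, Pdgfra, Neurod1, Emcn, Cldn5, Vtn, Egln3, Adm, Gria4, Rian, Mirg, Hdac1 and other genes outside this rule were chosen after their values were seen. Of 24322 symbols 23185 matched 1 GENCODE vM21 gene.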

Additional observations from a re-analysis of the deposited data

Results flagged for a closer look

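For 30 of the genes named in the text the VPA effect at 12 weeks differed from that at P5 by the test of the difference in the 12-library limma fit; values are the 12-week effect minus the P5 effect on the log2(FPKM + 1) scale. In that fit 75 of 14200 genes passed. Of the 30, 0 passed with array weights, 2 with a replicate block and 11 to 16 when a P5 library was left out. Many of them are named in the text for their small p at 12 weeks, one of the 2 effects compared, so they are no independent sample of genes. It was positive for the following. Among immediate early genes the difference was 2.77 for Fosb, 2.49 for Nr4a1, 2.45 for Fos, 1.89 for Jun and 1.65 for Egr1. It was 2.47 for Ankrd37, 0.92 for Atf4, 1.37 for Vcan, 1.72 for Cyb5d1, 1.56 for Fam114a1 and 1.17 for Zcchc24. Sap25 (3.60) and 0610040B10Rik (4.09) are listed at 0 in the 12-week control libraries, so these values depend on the added 1.

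It was negative for the others. Of neuronal genes it was -1.73 for Cntnap2, -1.31 for Neurod2, -1.18 for Rnd2, -0.99 for Prdm8 and -0.82 for Calb2. Of genes of the vessel wall, transport and matrix it was -2.35 for Slc22a8, -2.31 for Vtn, -2.19 for Slc19a3, -1.99 for Islr, -1.99 for Abcc9 and -1.26 for Sepp1, and of Wnt pathway genes -1.25 for Dkk3 and -0.83 for Apcdd1. Fam212a gave -3.08. Riiad1 (-3.35), Pfn4 (-3.04) and Rhod (-2.76) are listed at 0 in the 12-week VPA libraries.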

How the results depend on the processing

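The count of genes called at 12 weeks was 1 higher and 0 lower. The 1 became 0 with a pseudocount of 0.1, with no filter, with a filter at 5 FPKM, with a replicate block and with the 9 libraries of 12 weeks in the fit, and 0 to 2 when a library was left out; without any 1 VPA library the called gene had too few values of 1 FPKM to be tested. The lower count became 1 without the trend, and 0 to 1 when a library was left out. A fit of all 21 libraries gave 283 higher and 250 lower; the cause was not tested. Counts differing between ages, 75 at first, were 4 with array weights, 5 with a replicate block and 17 to 433 when a library was left out. Deviations of same-numbered VPA and control libraries correlated at -0.018, -0.071 and -0.033, beside -0.031 to 0.059 for the other pairs. No shared deviation was thus seen, but whether same-numbered samples share a litter or sort day is not in the labels.

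Sox2 changed sign at -0.035 with array weights and ranged from -0.069 to 0.31 when a library was left out. Ttr ranged from -0.077 to 1.96 and Enpp6 from -0.019 to 0.87; the cause was not tested. Over 165 named genes and these alternatives, 2839 of 2923 values kept direction and side of the threshold, and 74 more passed it, all in the fit of 21 libraries. List medians kept their sign under every scaling alternative for the oligodendrocyte precursor (0.95 to 1.05), newborn granule neuron (-0.38 to -0.30) and endothelial (-1.21 to -0.81) lists. Depth is unknown, so low values cannot be given a limit.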
